A study of Mus musculus with 9 samples.

Results

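The 10 genes described here encode the receptor for insulin and the main steps of its signal in the liver cell: Insr, Irs1, Irs2, Pik3r1, Pdpk1, Akt1, Akt2, Foxo1, Foxo3 and Ptpn1. They were found by their symbols in a table of read counts from rat liver, in which each symbol had 1 row among 19686 genes, and all 10 passed the filter on low counts in every comparison. Liver mRNA was sequenced from 9 male Wistar rats, 3 in each of 3 groups, and the study asked how a fructose drink and a herbal extract altered hepatic gene expression. Control rats drank purified water and were given saline by gavage. Model rats drank 15% fructose for 8 weeks and were given saline by gavage. Rats of the DSS group drank the same fructose for 8 weeks and were given 1.8 g/kg of an extract of Danggui-Shaoyao-San, a formula of dried roots, rhizomes and a fungus. The labels do not name the extract, and by the study's methods only the one made with mixed methanol and water (HME) went to sequencing, so the DSS group was read as that extract. All rats were fasted for 12 h and anaesthetised with chloral hydrate before the liver was taken, and the ages of the rats are not given in the sources used here. Although the organism field reads mouse, the strain field and the Ensembl identifiers of the genes are those of rat, and the samples were read as rat.

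Insulin binds the receptor Insr, a tyrosine kinase at the cell surface, which phosphorylates the adaptor proteins Irs1 and Irs2. These recruit phosphoinositide 3-kinase, whose product at the membrane brings Akt next to its activating kinase PDK1, encoded by Pdpk1. Active Akt keeps the FoxO transcription factors out of the nucleus, and in liver this lowers the genes of glucose production, while other branches raise the genes of glycogen and fat synthesis. The pathway is switched mainly by phosphorylation, which mRNA counts do not measure.

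Of the 10 genes, none was called between the model and control groups or between the DSS and model groups, and 1 was called between the DSS and control groups. That gene was Akt1, whose level was lower in every model rat than in every control rat and lower again in every DSS rat. DESeq2 on the same genes gave the same numbers, 0, 0 and 1, with Akt1 as the gene called. A gene was called at a log2 fold change of at least 0.5 in size and a Benjamini-Hochberg false discovery rate (FDR) of at most 0.01, from edgeR's quasi-likelihood test over all genes tested. By this rule 0.0801% of 12486 genes tested were called between model and control, 0.136% of 12502 between DSS and model, and 1.48% of 12633 between DSS and control. At an unadjusted p under 0.05, 2 members were lower in the model group (Pik3r1 and Akt1), 1 was lower in the DSS group than in the model group (Akt1), and between DSS and control 1 was higher (Insr) and 2 lower (Pik3r1 and Akt1). Over all genes tested, 13.2% had such a p between model and control (6.84% higher and 6.36% lower), 8.02% between DSS and model (3.54% higher and 4.49% lower) and 24.3% between DSS and control (11.9% higher and 12.5% lower). The median log2 fold change of the 10 members was -0.10 between model and control, 0.17 between DSS and model and -0.01 between DSS and control, where the medians over all genes were -0.00, 0.00 and -0.01.

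Levels are given as CPM, edgeR's counts per unit of TMM-normalized library size, and they compare rats within a gene but not genes with each other, since long transcripts collect more reads. Each library held between 14345819 and 26837227 counted reads. The liver is a mixture of cells, so fewer cells of a type and less RNA per cell cannot be told apart. Summed markers of hepatocytes lay between 110677 and 178376 CPM in the 9 livers, those of Kupffer cells and leukocytes between 154 and 503 CPM, of endothelial cells between 71.9 and 219 CPM, of stellate cells and fibroblasts between 190 and 358 CPM, of bile duct cells between 15.1 and 33.3 CPM and of red blood cells between 359 and 1183 CPM, and no gene of these lists was called in any comparison. Markers of proliferating cells summed to 0.812 to 3.33 CPM in the DSS group, 4.86 to 10.3 CPM in the model group and 2.74 to 6.1 CPM in the control group, which overlapped both, and of the pancreas markers Cpa1 did not exceed 0.0595 CPM. The hepatocyte sum is mostly Alb (87429 to 146331 CPM). Of the 6 hepatocyte markers, 4 were higher and 2 lower in model than in control. Cps1 lay at 2037 to 2977 CPM in model and 3767 to 4461 CPM in control rats. Tat lay at 254 to 644 and 696 to 870 CPM, in that order. Neither overlapped, and 9.86% of all genes tested were lower without overlap. Between DSS and control 1 hepatocyte marker was higher at an FDR of 0.05, where 6.36% of all genes passed. The part of any of these cell types in the results was not tested.

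The library of model replicate 1 stood apart, and 8 of the 10 members had their lowest level of all 9 livers in it. The members summed to 280 CPM in this rat and to 358 to 441 CPM in the other rats. On the second principal component it lay at -61.2, with the next rat at -18.3. Its level fell with transcript length, by a slope of -0.31 log2 units per doubling of length, while the slopes of the other libraries lay between -0.04 and 0.08. Lengths were those of the mouse transcripts with the same symbols, since no rat annotation was used here. The 1117 genes with the longest transcripts had a median deviation of -0.54 in model replicate 1 and the 1117 with the shortest 0.39, both in log2 CPM from the mean of the 9 libraries. Most members are long transcripts, with 7 of them at the 87.6 percentile of length or above, up to the 96.9 percentile for Insr. Akt1, at the 39.1 percentile, is the shortest, and it is the member whose level in model replicate 1 was not the lowest of the model rats. The part of transcript length in the low levels of the members in this library was not tested.

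**Figure D1:**
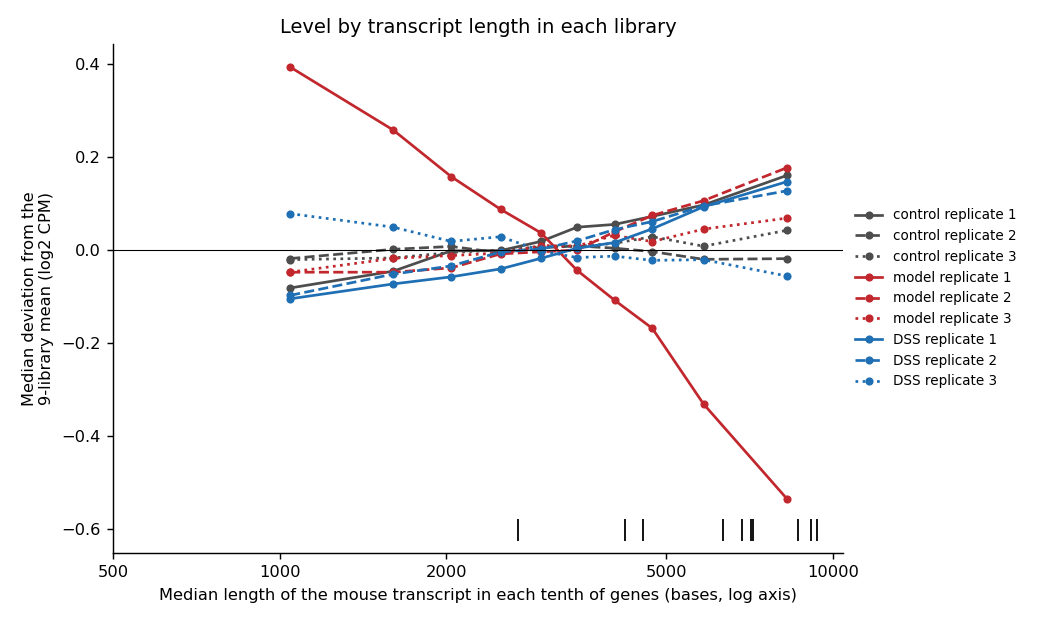
Median deviation of each library from the mean of the 9 libraries (log2 CPM, vertical axis) in 10 groups of 1116 or 1117 genes ordered by mouse transcript length (bases, log axis), with 1 line per rat in grey (control), red (model) or blue (DSS). Black ticks mark the lengths of the 10 members. The line of model replicate 1 falls from 0.39 to -0.54, and the other 8 lines stay between -0.11 and 0.18.

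Without model replicate 1 the direction of most member differences turned. With it, 2 of the 10 members were higher in the model group than in the control group and 9 of 10 were higher in the DSS group than in the model group. Without it these counts became 7 of 10 and 2 of 10. With all rats, the share of all genes tested with a fold change above 0 was 49.9% and 50.1% in these comparisons. Without model replicate 1 the median log2 fold changes were -0.009 and 0.002 over all genes and 0.09 and -0.09 over the members. The comparison of the DSS and control groups does not use this library, and there 5 of the 10 members and 49.1% of all genes were above 0. Each log2 fold change of a member that involves the model group is therefore given below with and without this rat. For a difference given of another gene, the value without it follows where it changed the sign, the side of a threshold or the size by over 1.5 times.

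**Figure D2:**
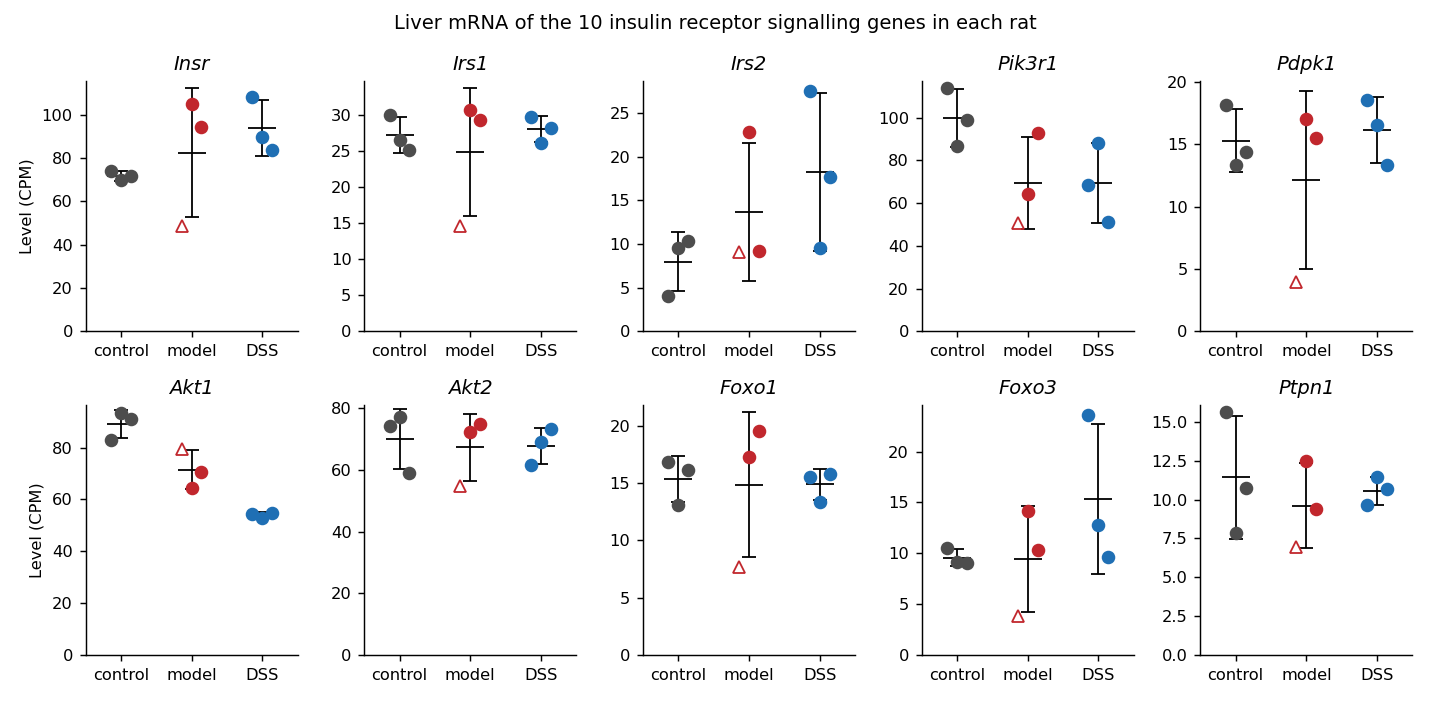
Level of each member (CPM, linear axis from 0) in the 3 control (grey), 3 model (red) and 3 DSS (blue) rats, with the mean (wide bar) and SD (capped line) of each group. Open triangles are model replicate 1, which is the lowest of the model rats in 9 of 10 panels. For Akt1 the control rats are the highest, the DSS rats the lowest, and no groups overlap.

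Insr, the receptor itself, stood at 74.1, 69.8 and 71.5 CPM in control replicates 1 to 3, at 48.7, 105 and 94.1 CPM in the model rats and at 108, 89.6 and 83.6 CPM in the DSS rats. All 3 DSS rats were above all 3 control rats, and 2 model rats were above the controls while model replicate 1 was below them. The group means were 71.8 ± 2.2 CPM, 82.5 ± 29.8 CPM and 93.8 ± 12.9 CPM (SD, n = 3 each). Against control, the log2 fold change of the DSS group was 0.38 (standard error 0.117, 95% interval 0.12 to 0.64), and with an edgeR FDR of 0.0844 it did not pass the test. The groups of this comparison did not overlap in 2 of the 10 members, Insr (higher) and Akt1 (lower), and in 30% of all genes tested (15.1% higher and 14.9% lower). Between model and control the log2 fold change of Insr was 0.19 (FDR 0.785, edgeR), and without model replicate 1 it was 0.45 (FDR 0.103, edgeR), with both remaining model rats above every control rat. With this rat left out, 33.7% of all genes tested had no overlap between model and control. Between DSS and model the log2 fold change of Insr was 0.19, and -0.08 without model replicate 1. When the trend of each library in transcript length and GC content was removed, a step chosen after seeing the data, the difference between DSS and control was 0.39 with an edgeR FDR of 0.0395, still under the minimum fold change. That was the lowest FDR of the 14 alternatives, which ranged up to 0.431, with log2 fold changes of 0.25 to 0.47. Insr was called in none of them.

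Irs1, the adaptor that is bound and phosphorylated by the receptor, was measured at 30.0, 26.6 and 25.2 CPM in the control rats, 14.6, 30.6 and 29.3 CPM in the model rats and 29.7, 26.1 and 28.2 CPM in the DSS rats. Apart from model replicate 1, the 8 rats lay within a narrow range and the groups overlapped. Log2 fold changes were -0.14 for model against control (95% interval -0.74 to 0.45), 0.18 for DSS against model and 0.03 for DSS against control (95% interval -0.22 to 0.29). Leaving out model replicate 1, the former pair became 0.12 and -0.09.

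Irs2, the adaptor whose gene in liver is raised in fasting by FoxO factors, had the widest spread of the members among control rats and among DSS rats, relative to its mean. Control rats had 4.06, 9.51 and 10.4 CPM, model rats 9.03, 22.8 and 9.17 CPM, and DSS rats 27.5, 9.49 and 17.7 CPM. High levels were seen in model replicate 2 and in DSS replicates 1 and 3, while model replicates 1 and 3 and DSS replicate 2 lay within the control range. The coefficient of variation was 42.9%, 58.0% and 49.4% in the control, model and DSS groups, and for Irs1 it was 9.15%, 35.8% and 6.5%. Irs2 had the largest log2 fold changes of the members in 2 comparisons, 0.77 for model against control (standard error 0.461, FDR 0.523 from edgeR, and 1.002 without model replicate 1) and 1.20 for DSS against control (standard error 0.513, 95% interval -0.06 to 2.47, FDR 0.224 from edgeR). Neither passed the test. With DESeq2 the FDR of the second was 0.0257, past 0.05 and not past 0.01, and over the 14 alternatives it ranged from 0.0257 to 0.448. For DSS against model the log2 fold change was 0.43 (FDR 0.876, edgeR), and 0.20 without model replicate 1. Without DSS replicate 1, the rat with the highest level, the difference from control was 0.78 and that from model was -0.01.

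Some other genes of the pathway were at an extreme in the same livers that held the highest Irs2, and these genes were chosen after their values were seen. In DSS replicate 1 and model replicate 2, Socs3, a feedback inhibitor of cytokine and insulin receptors, stood at 10.8 and 32.7 CPM, in that order, and at 1.85 to 4.14 CPM in the others. For Gadd45a, a growth arrest gene and FoxO target, the levels were 22.9 and 24.4 CPM against 10.1 to 18.0 CPM. Srebf1, which encodes the SREBP-1 factor of fat synthesis, was at 169 and 214 CPM, its lowest 2 levels. DSS replicates 2 and 3 came next at 219 and 243 CPM, so all DSS rats were low in it. Not all FoxO targets listed were high in DSS replicate 1 and model replicate 2. Igfbp1 was at 24.5 and 23.8 CPM there and at 5.29 to 60.7 CPM in the others, and G6pc was at 199 and 420 CPM against 236 to 936 CPM. These are values of 2 livers, the share of all genes with such extremes was not computed, and no test was made of them.

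**Figure D3:**
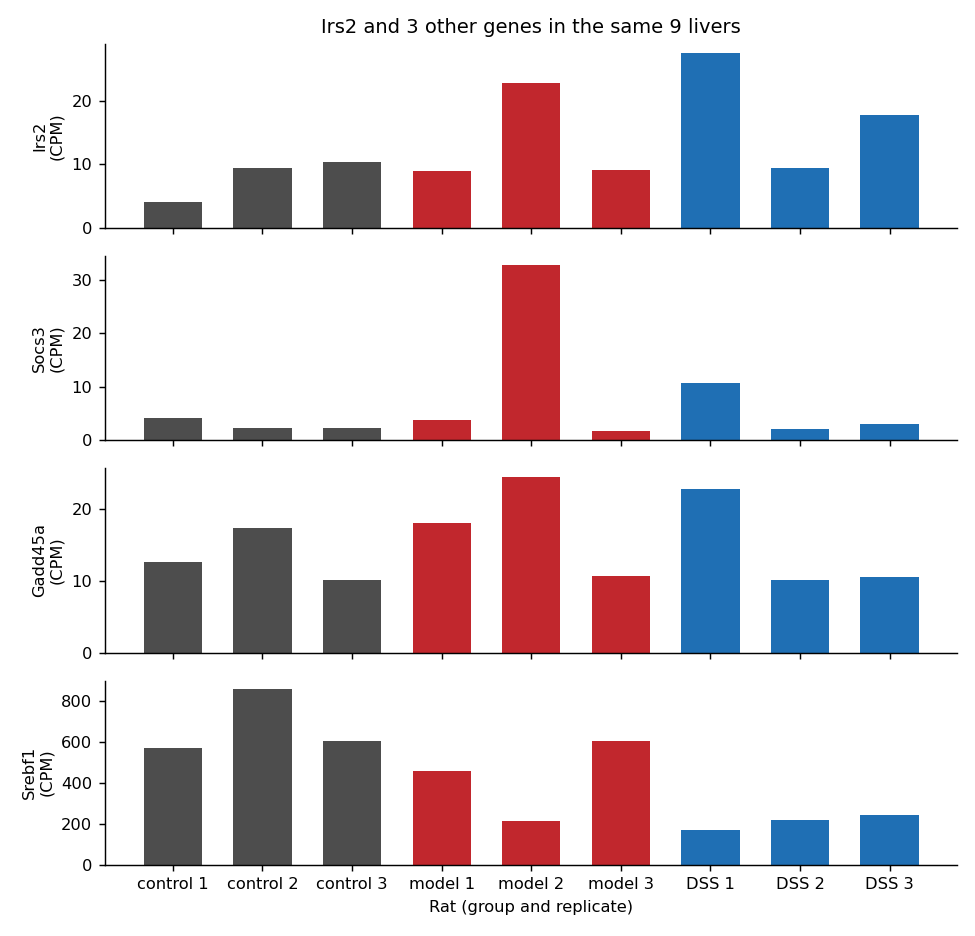
Levels of Irs2, Socs3, Gadd45a and Srebf1 (CPM, linear axes from 0) in each of the 9 livers, with control in grey, model in red and DSS in blue. The bars of model 2 and DSS 1 are the highest for Irs2 (22.8 and 27.5 CPM), Socs3 and Gadd45a and the lowest for Srebf1 (214 and 169 CPM). Socs3, Gadd45a and Srebf1 were chosen after their values were seen.

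Pik3r1, the regulatory subunit p85 alpha of phosphoinositide 3-kinase, was at 114, 87.0 and 99.0 CPM in the control rats, at 50.9, 64.2 and 93.1 CPM in the model rats and at 68.7, 88.3 and 51.1 CPM in the DSS rats. In each fructose-fed group 2 rats were below every control rat and 1 rat lay within the control range. The means were 99.98 ± 13.5, 69.4 ± 21.5 and 69.4 ± 18.6 CPM (SD, n = 3 each). Its log2 fold change was -0.53 for model against control (standard error 0.222, FDR 0.353 from edgeR) and -0.53 for DSS against control (standard error 0.192, FDR 0.133 from edgeR), so neither passed the test. The same 3 control rats enter both differences. For DSS against model the value was 0.01 (95% interval -0.61 to 0.62), an interval that leaves room for a difference of the size seen against control. Without model replicate 1 the difference of model from control was -0.36 and that of DSS from model was -0.18.

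Pdpk1 encodes PDK1, the kinase that phosphorylates Akt at the membrane. It was at 18.1, 13.3 and 14.4 CPM in the control rats, 3.96, 17.0 and 15.5 CPM in the model rats and 18.6, 16.5 and 13.4 CPM in the DSS rats. Model replicate 1 lay far below the other 8 rats, with 92 counts where they had 216 to 452. The log2 fold changes were -0.35 for model against control and 0.43 for DSS against model, and without that rat they were 0.07 and -0.00. Against control the DSS group differed by 0.07 (95% interval -0.30 to 0.44).

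Akt1, a serine/threonine kinase found in most tissues, was the member that passed the test. Control rats had 83.1, 93.2 and 91.1 CPM, model rats 79.5, 64.3 and 70.7 CPM, and DSS rats 54.4, 52.7 and 54.7 CPM. Every model rat was below every control rat, and every DSS rat was below every model rat. The means were 89.1 ± 5.34, 71.5 ± 7.61 and 53.9 ± 1.09 CPM (SD, n = 3 each). Between DSS and control the log2 fold change was -0.73 (standard error 0.0967, 95% interval -0.95 to -0.51), a level 0.603 times that of control, with an edgeR FDR of 0.00379 and the rank 92 by p among the genes tested. Neither step passed on its own, with log2 fold changes of -0.32 for model against control (standard error 0.136, FDR 0.362 from edgeR) and -0.40 for DSS against model (standard error 0.128, FDR 0.436 from edgeR). Akt1 was the only member whose groups did not overlap at either step. Over all genes tested this held for 21.1% between model and control (11.2% higher and 9.86% lower) and for 13.9% between DSS and model (6.22% higher and 7.69% lower). Without model replicate 1 the steps were -0.42 and -0.32. Control rats enter the former step and the overall difference, so these are not separate pieces of evidence.

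The call of Akt1 between DSS and control was near the FDR threshold. It held in 8 of 14 alternative analyses, among them DESeq2 (FDR 5.51e-07) and the removal of the length and GC trend (log2 fold change -0.68, FDR 0.00415, edgeR). With 1 rat left out at a time the log2 fold change stayed between -0.78 and -0.69 while the edgeR FDR lay between 0.00968 and 0.0186, and the call was kept without control replicate 1 and lost without any other rat, which were control replicates 2 and 3 and the 3 DSS rats.

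Akt2, the isoform known for its part in the metabolic action of insulin in liver, did not separate the groups in this way. It was at 74.4, 77.1 and 58.9 CPM in the control rats, 54.9, 72.3 and 74.9 CPM in the model rats and 61.5, 69.0 and 73.2 CPM in the DSS rats, with all groups overlapping. The log2 fold changes were -0.06 (95% interval -0.44 to 0.32), 0.02 (-0.34 to 0.38) and -0.05 (-0.34 to 0.23) for model against control, DSS against model and DSS against control. The interval for DSS against control thus leaves out the fall of -0.73 seen for Akt1 in that comparison. The interval for model against control holds the -0.32 of Akt1, so it does not show that Akt2 lacked that step. For DSS against model the interval ends short of the -0.40 of Akt1, but it overlaps the 95% interval of Akt1 (-0.70 to -0.11). It therefore does not show that Akt2 lacked that step either. With model replicate 1 left out, the differences were 0.05 for model against control and -0.11 for DSS against model.

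The ratio of Akt1 to Akt2 counts within a library does not depend on the scaling between libraries. It can still carry a trend in transcript length such as that of model replicate 1, since Akt2 is longer (72.6 percentile) than Akt1 (39.1 percentile). On the log2 scale it was 0.16, 0.27 and 0.63 in the control rats, 0.53, -0.17 and -0.08 in the model rats and -0.18, -0.39 and -0.42 in the DSS rats. No DSS rat reached the lowest control or model rat, though DSS replicate 1 (-0.177) came close to model replicate 2 (-0.168). Model replicate 1 lay among the controls, and model replicates 2 and 3 lay below every control rat. For the ratios, no mean or test was computed without model replicate 1. The mean ratio was 0.35 ± 0.25 in control, 0.09 ± 0.38 in model and -0.33 ± 0.13 in DSS rats (SD, n = 3 each). A two-sided exact permutation test gave p = 0.1 for DSS against control and for DSS against model, the smallest value 3 rats against 3 can give, and 0.4 for model against control. After Benjamini-Hochberg adjustment over 9 tests, which include the pairs Irs1 with Irs2 and Foxo1 with Foxo3, the exact values were 0.45, 0.45 and 0.514. The log2 ratio of Irs1 to Irs2 was 1.88 ± 0.88 in control, 0.93 ± 0.66 in model and 0.75 ± 0.68 in DSS rats (SD, n = 3 each), and that of Foxo1 to Foxo3 was 0.68 ± 0.16, 0.74 ± 0.39 and 0.06 ± 0.66. In these other pairs the exact p lay between 0.2 and 0.8.

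Foxo1 encodes the main FoxO factor of hepatic glucose production, which Akt inhibits. It stood at 16.8, 13.1 and 16.1 CPM in the control rats, 7.66, 17.3 and 19.6 CPM in the model rats and 15.5, 13.3 and 15.8 CPM in the DSS rats. Groups overlapped in every comparison, and DSS and control rats covered nearly the same range. Log2 fold changes were -0.06 for model against control, 0.02 for DSS against model and -0.05 for DSS against control (95% interval -0.37 to 0.27). Without model replicate 1, the remaining model rats were above every control and every DSS rat, with differences of 0.25 (FDR 0.515, edgeR) and -0.30 (FDR 0.701, edgeR) that did not pass the test. With this rat left out, 33.7% of all genes tested had no overlap between model and control, and 24.2% had none between DSS and model.

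Foxo3, a related factor under the same inhibition by Akt, was at 10.6, 9.1 and 9.04 CPM in the control rats, 3.83, 14.2 and 10.3 CPM in the model rats and 23.6, 12.7 and 9.62 CPM in the DSS rats. The value of model replicate 1 was the lowest and that of DSS replicate 1 the highest of the 9 livers. The log2 fold changes were -0.04 for model against control, 0.72 for DSS against model (FDR 0.807, edgeR) and 0.67 for DSS against control (standard error 0.314, FDR 0.242 from edgeR). Without DSS replicate 1 the difference from control was 0.22, and without model replicate 1 the differences were 0.34 for model against control and 0.33 for DSS against model.

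Ptpn1 encodes PTP1B, a phosphatase that removes phosphate from the activated receptor. Its levels were 15.7, 7.85 and 10.8 CPM in the control rats, 6.97, 12.4 and 9.42 CPM in the model rats and 9.64, 11.4 and 10.7 CPM in the DSS rats. The widest spread was among the controls, whose range held all the DSS rats. Log2 fold changes of -0.26, 0.15 and -0.12 for model against control, DSS against model and DSS against control had edgeR FDR values of 0.745, 0.918 and 0.786, and 95% intervals of -0.93 to 0.41, -0.38 to 0.68 and -0.64 to 0.39. With model replicate 1 left out, the former pair became -0.09 and -0.04.

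**Figure D4:**
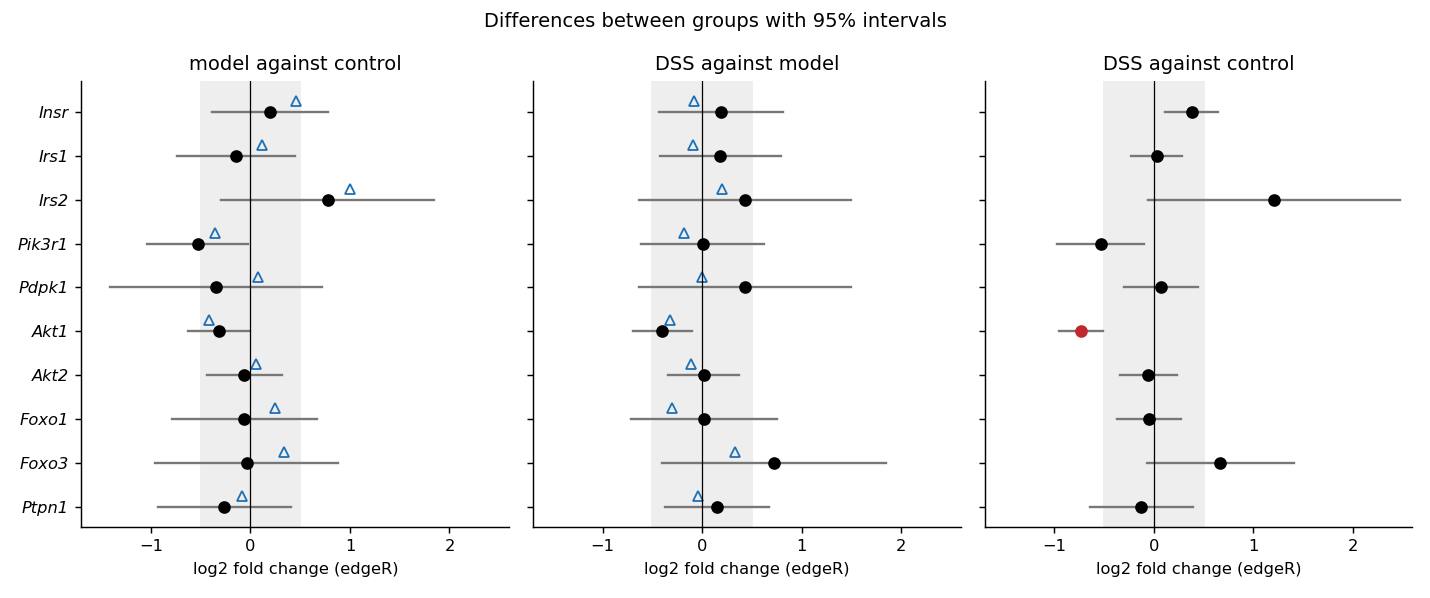
Log2 fold change of each member (horizontal axis, edgeR) with its 95% interval for model against control, DSS against model and DSS against control. Red marks the called difference (Akt1, -0.73), grey shading the range under the minimum fold change of 0.5 in size, and open triangles the value without model replicate 1, which lie above 0 for 7 of the 10 members in the left panel and below 0 for 8 of the 10 in the middle panel.

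Across the 9 livers, the genes whose level was most like that of Insr by Pearson's r of log2(CPM + 1) were Zfp871 (0.989), Trpm7 (0.984) and Akap13 (0.976). For Irs1 they were Slc7a2 (0.989), Clic4 (0.989) and Prrc2b (0.983), and for Irs2 they were Flot2 (0.953), Tmem176a (0.944) and Slco2b1 (0.932). These are the 3 highest of 7084 genes with a mean of at least 10 CPM in each case, over 9 livers that include model replicate 1, and they describe likeness in level only.

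Beyond the members, 69 other genes of the pathway were listed in 7 groups, of which 66 were tested in each comparison. None was called between model and control or between DSS and model, and between DSS and control 1 rose (Ccng2) and 3 fell (Fasn, Acaca and Srebf1). At an FDR of at most 0.05 and the same fold the numbers were 1 higher and 0 lower, 0 higher and 2 lower, and 4 higher and 4 lower, where 0.601%, 0.456% and 6.36% of all genes passed. Their median log2 fold changes were 0.05, 0.05 and 0.04. The groups did not overlap in 21, 11 and 29 of the 66 genes (31.8%, 16.7% and 43.9%), where 21.1%, 13.9% and 30% of all genes tested did not.

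Among 6 adaptors and related receptors none passed the test in any comparison. Gab1, a docking protein of receptor kinases, had the lowest p of those without overlap, at 7.14 ± 0.492 CPM in control and 4.95 ± 1.88 CPM in model rats (log2 fold change -0.54, FDR 0.487 from edgeR, and -0.26 without model replicate 1). Among 9 brakes at the receptor, Grb10, an adaptor that binds and inhibits the insulin receptor, was at 2.25, 1.25 and 1.79 CPM in control, 3.61, 3.85 and 2.77 CPM in model and 3.63, 4.21 and 3.85 CPM in DSS rats. Both fructose-fed groups were above every control rat. The difference between DSS and control was 1.12 (standard error 0.263, FDR 0.0364 from edgeR), past 0.05 and not past 0.01, and that between model and control was 0.94 (FDR 0.252, edgeR). Ceacam1, a protein that promotes insulin clearance by the liver, stood at 107 to 127 CPM in control, 166 to 192 CPM in model and 124 to 155 CPM in DSS rats, with log2 fold changes of 0.61 (FDR 0.109, edgeR) and -0.32 (FDR 0.626, edgeR) for model against control and DSS against model. Enpp1, a membrane enzyme that can bind the receptor, was higher in every DSS rat (97.7 to 120 CPM) than in every other rat (74.6 to 92.1 CPM), with a log2 fold change of 0.34 over control (FDR 0.0982, edgeR).

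Of 9 genes of phosphoinositide 3-kinase and the lipid phosphatases, none was called. Pik3ap1, an adaptor of the kinase that is best known in immune cells, was at 79.4 to 87.1 CPM in control, 49.2 to 68.7 CPM in model and 56.6 to 67.3 CPM in DSS rats. Between DSS and control its log2 fold change of -0.44 had an edgeR FDR of 0.0394 and lay under the minimum fold change. The summed level of Kupffer cell and leukocyte markers was 219 to 503 CPM in control, 154 to 353 CPM in model and 229 to 304 CPM in DSS rats, with 6 of 6 tested markers lower in the DSS than in the control group and none called, and its part in this difference was not tested.

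In the Akt and mTOR arm, 18 genes were tested and none was called, with 2 higher in DSS than in control at an FDR of 0.05. Trib3, a pseudokinase that binds Akt and is raised in stress, was at 1.49, 1.31 and 2.19 CPM in control, 7.05, 3.47 and 6.77 CPM in model and 13.4, 13.7 and 3.8 CPM in DSS rats. All fructose-fed rats were above all controls. Its log2 fold change was 2.64 for DSS against control (standard error 0.528, FDR 0.0342 from edgeR) and 1.8 for model against control (FDR 0.0836, edgeR). Eif4ebp1, which encodes 4E-BP1, a brake on translation that mTOR releases, was at 20.2 to 24.8 CPM in control, 27.7 to 41.3 CPM in model and 31.4 to 36.2 CPM in DSS rats, and the difference of DSS from control was 0.60 (FDR 0.0208, edgeR). Mtor itself lay at 43.8 to 46.2 CPM in DSS rats, below all other rats (49.8 to 66.5 CPM), with log2 fold changes of -0.36 against model and -0.23 against control that did not pass the test (FDR 0.574 and 0.161, edgeR).

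Among 7 kinases that act on the IRS proteins none passed. Prkcz, an atypical protein kinase C, was at 19.7 to 21.2 CPM in model rats, above every control rat (11.7 to 15.5 CPM) and every DSS rat (9.8 to 14.2 CPM), with log2 fold changes of 0.54 (FDR 0.198, edgeR) and -0.78 (FDR 0.157, edgeR). Prkcd, protein kinase C delta, was at 11.2 to 16.7 CPM in control and lower in all model (7.39 to 9.37 CPM) and all DSS rats (5.46 to 9.48 CPM), with -0.66 and -0.77 against control (FDR 0.208 and 0.0812, edgeR).

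Of 14 genes of the FoxO arm, which holds FoxO factors and FoxO target genes, 13 were tested. Ccng2, a cyclin gene and FoxO target, was at 11.4, 11.1 and 8.37 CPM in control, 22.6, 25.9 and 22.2 CPM in model and 32.4, 19.1 and 25.7 CPM in DSS rats. Both fructose-fed groups were above every control rat. It rose by a log2 fold change of 1.31 between control and DSS (standard error 0.207, FDR 0.00965 from edgeR), a call that held in 6 of 14 alternatives and was kept without DSS replicate 2 and lost without any other rat (FDR up to 0.0367, edgeR). Between control and model the value was 1.19 (standard error 0.169, FDR 0.0279 from edgeR), past 0.05 and not past 0.01. The list's medians were 0.31, 0.14 and 0.11 in the 3 comparisons, and the other 12 genes tested did not pass in any of them.

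The 6 genes listed as induced by insulin through SREBP-1 and related factors are Srebf1, Pnpla3, Fasn, Acaca, Thrsp and Elovl6, of which Elovl6 was not tested for its low counts. All 5 tested had a log2 fold change below 0 in every comparison, with medians of -0.48, -2.33 and -2.82, and Acaca stood at 0.02 between model and control once model replicate 1 was left out. Fasn (fatty acid synthase), Acaca (acetyl-CoA carboxylase) and Srebf1 fell between control and DSS, with log2 fold changes of -4.02, -2.32 and -1.69 (FDR 0.00183, 3.9e-05 and 0.00244 from edgeR). The call of Acaca held in 14 of 14 alternatives, that of Fasn in 13 and that of Srebf1 in 12, and without DSS replicate 2 the FDR of both Fasn and Srebf1 was 0.0106 (edgeR). Acaca was at 184 to 224 CPM in control, 88.9 to 229 CPM in model and 38.0 to 46.2 CPM in DSS rats. Between DSS and model, Fasn and Acaca passed an FDR of 0.05 and not 0.01 (log2 fold changes -3.60 and -2.04, FDR 0.0329 and 0.0499 from edgeR), and without model replicate 1 Acaca was called (FDR 0.00175, edgeR) while Fasn had an FDR of 0.171 (edgeR). Thrsp, a regulator of fat synthesis, had a log2 fold change of -2.82 for DSS against control (FDR 0.0249, edgeR).

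**Figure D5:**
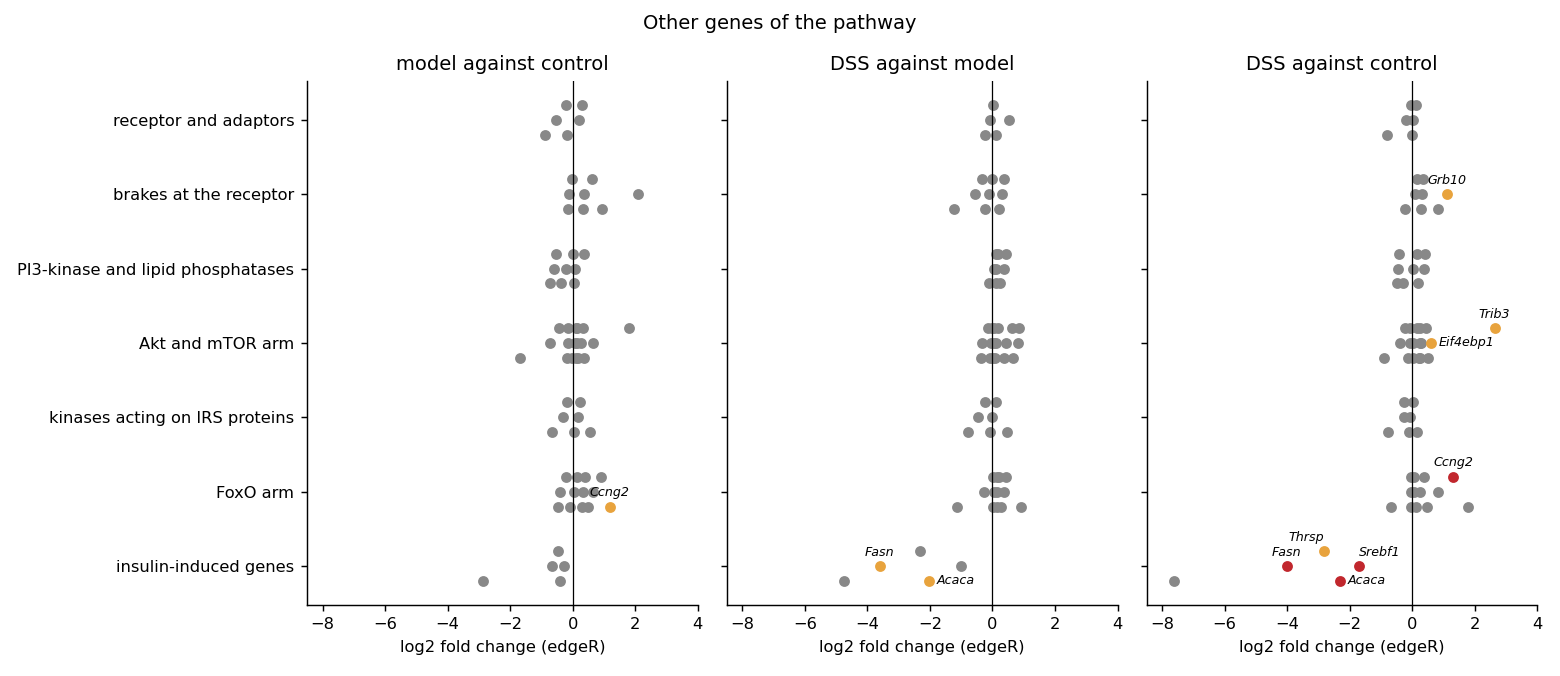
Log2 fold change (horizontal axis, edgeR) of the other genes of the pathway by list, 1 point per gene tested, for the 3 comparisons. Red points were called, orange points passed an FDR of 0.05 only, and named points are those. The points of the insulin-induced genes lie below 0 in every panel, and those of the other lists lie on both sides.

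Genes of the circadian clock were listed because the hour at which each rat was sacrificed is not given in the sources used here and feeding shifts the liver clock. Of 12 listed genes 11 were tested, with 1 called between model and control (Per2), none between DSS and model and 3 between DSS and control (Per2 and Cry1 lower, Npas2 higher). Per2, a clock repressor, was at 74.9 to 89.0 CPM in control and 12.6 to 17.0 CPM in model rats, and at 14.4 to 15.3 CPM in DSS rats. Cry1 was at 24.8 to 33.1, 9.91 to 19.2 and 3.64 to 5.9 CPM in the groups in that order, and Npas2 at 1.2 to 2.62, 15.02 to 33.5 and 8.53 to 12.8 CPM. At an FDR of 0.05 Nr1d1 (log2 fold change 4.12) and Nr1d2 (1.15), both clock repressors, were also higher in DSS than in control (FDR 0.0111 and 0.0351, edgeR). At the same threshold Npas2 was also higher in model than in control (log2 fold change 3.92, FDR 0.0111, edgeR). The calls of Per2 and Cry1 between DSS and control held in 14 of 14 alternatives. That of Per2 between model and control held in 10 and was lost without any 1 of the control rats (FDR up to 0.0234, edgeR). That of Npas2 between DSS and control held in 10 and was lost without control replicate 1 or 3 or DSS replicate 1 or 3 (FDR up to 0.0185, edgeR). The part of the clock in the differences of the members was not tested.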

How the data were processed

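Total RNA of 9 livers was enriched for poly(A) mRNA and sequenced on an Illumina platform. The authors aligned reads with HISAT2 2.0.5, counted them per gene on exons without regard to strand with HTSeq 0.6.1 and deposited whole-number counts without normalization; the submitters' processing notes name the build Rnor_6.0. Reads of overlapping genes can therefore be lost or put to the other gene. A table of assembled transcripts was not used. Groups came from the sample titles. Each comparison was fitted on its 6 libraries with edgeR 4.0.16 in R 4.3.3 (filterByExpr, TMM, robust glmQLFit, two-sided glmQLFTest), and p-values were adjusted over all genes tested. Standard errors and 95% intervals came from that fit. The thresholds were those of the study. The design names 3 samples per group and calls them rats. The edgeR p-values set each group difference against the variation between these samples, estimated with information shared across genes. The fit was also run on counts simulated from its own dispersion estimates, which cannot show whether the real counts follow that model.

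The members and gene lists were chosen with earlier results of these data known. Named genes were all members, the listed genes past an FDR of 0.05 and a log2 fold change of 0.5, and per list and comparison the gene of lowest p among those without overlap. Pnpla3, Elovl6, Socs3, Gadd45a, Igfbp1 and G6pc lie outside this rule. A further listed gene is not reported here. For Insr, Irs1 and Irs2 the 3 most similar genes were named. Cd79a, Pecam1, Prss1, Ins1 and Ins2 were not matched. Alternatives were DESeq2 1.42.0, its size factors in edgeR, scaling by library size alone, a minimum of 10 counts in every library, no filter, a single fit of all 9 libraries, a block for the replicate number, each rat left out, no minimum fold change, and an FDR of 0.05. Removal of each library's trend in length and GC content was added after seeing the data, with lengths from mouse GENCODE transcripts matched by symbol for 86.6% of 12897 genes and all 10 members.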

Additional observations from a re-analysis of the deposited data

How the results depend on the processing

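The 30 fold changes of the members were recomputed in 420 alternatives in all, of which 376 kept the sign, and 10 of the 30 kept it in every one. No member was called between model and control or between DSS and model in any alternative run, DESeq2 included, although 2 and 1 members had an unadjusted p under 0.05 in edgeR. Between DSS and control 1 member, Akt1, was called, and 0 with the replicate block, and 0 to 1 with each rat left out. Same-numbered rats did not deviate together (correlations of -0.259 to -0.012), so the numbers were not taken to pair the rats. With the paired fit, a replicate block, the calls over all genes went from 10, 17 and 187 to 0, 7 and 104. DESeq2 gave 256, 147 and 768 and no filter gave 71, 38 and 489. Listed pathway genes called were 0, 0 and 4. They became 1 without a filter for model against control, 4, 4 and 11 with DESeq2, 1, 2 and 8 at an FDR of 0.05, 1 for DSS against model with the length and GC trend removed, and, with each rat left out, 0 to 1 for DSS against model and 3 to 5 for DSS against control, where Acaca, Fasn, Srebf1 and Ccng2 were called in 14, 13, 12 and 6 of 14 alternatives. Without model replicate 1 the members above 0 went from 2 to 7 (model against control) and from 9 to 2 (DSS against model). Scaling by library size alone moved the median of all genes by -0.15, 0.00 and -0.14, and with that scaling the values were on the other side of 0 for these: Foxo1 -0.020 (DSS against model), Irs1 -0.11 and Pdpk1 -0.067 (DSS against control). With all 9 libraries in one fit Pik3r1 was -0.00088 (DSS against model). With the length and GC trend removed, values turned to 0.028 for Irs1, 0.037 for Akt2, 0.085 for Foxo1, 0.044 for Foxo3 and 0.20 for Enpp1 (model against control), -0.16 for Pik3r1, -0.028 for Akt2, -0.10 for Foxo1, 0.029 for Eif4ebp1 and -0.10 for Per2 (DSS against model), and 0.0094 for Akt2 and 0.027 for Gab1 (DSS against control). The cause of each turn was not tested.

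With each rat left out, these values took both signs. For model against control they ranged from -0.012 to 0.45 for Insr, -0.32 to 0.12 for Irs1, -0.17 to 0.053 for Akt2, -0.32 to 0.25 for Foxo1, -0.46 to 0.34 for Foxo3, -0.49 to 0.040 for Ptpn1, -0.67 to 0.071 for Pdpk1, -0.11 to 0.056 for Enpp1 and -0.55 to 0.018 for Acaca. For DSS against model they ranged from -0.079 to 0.40 for Insr, -0.092 to 0.36 for Irs1, -0.0075 to 1.01 for Irs2, -0.21 to 0.28 for Pik3r1, -0.11 to 0.11 for Akt2, -0.30 to 0.28 for Foxo1, -0.041 to 0.37 for Ptpn1, -0.0039 to 0.74 for Pdpk1, -0.17 to 0.11 for Eif4ebp1, -0.25 to 0.12 for Prkcd, -0.075 to 0.31 for Ccng2 and -0.071 to 0.14 for Per2. For DSS against control they ranged from -0.017 to 0.11 for Irs1, -0.16 to 0.028 for Akt2, -0.15 to 0.028 for Foxo1, -0.33 to 0.18 for Ptpn1, -0.041 to 0.22 for Pdpk1 and -0.23 to 0.17 for Gab1.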
